A study of Mus musculus with 8 samples.

Results

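DNA transposons were taken as all repeat subfamilies in the deposited count tables whose identifier ends in the class field DNA. There were 204 such subfamilies among 1153 transposable element subfamilies and 25215 features in all. The tables came from RNA-seq of poly(A) RNA of mouse embryonic stem cells (mESCs) in 4 conditions with 2 biological replicates each. The study compared loss of the H3K9 methyltransferase SETDB1, inhibition of the H3K9 methyltransferases G9a/GLP, and both together, with untreated cells. All 8 libraries came from 1 line, the #33-6 Setdb1 conditional KO mESC line, so WT cells also carried the conditional allele. WT mESCs were untreated. UNC0642-treated mESCs received 2 µM of the G9a/GLP inhibitor UNC0642 over 3 days. Setdb1 KO mESCs received 800 nM 4-OHT over 5 days, which deletes the conditional allele. WT and UNC0642-treated mESCs received no 4-OHT, so deletion and exposure to 4-OHT cannot be told apart in comparisons of KO cells with them. For UNC0642-treated Setdb1 KO mESCs the sample labels give 800 nM 4-OHT over 2 days followed by 2 µM UNC0642 over 3 days. The general treatment protocol gives 5 days of 4-OHT for SETDB1 depletion without naming this condition, so its 4-OHT time is uncertain and may be shorter than in Setdb1 KO mESCs. All cells grew on gelatin in DMEM with LIF, FCS and KSR.

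DNA transposons move by a cut-and-paste mechanism: a transposase, encoded by the autonomous copies, binds the terminal inverted repeats of an element, excises it and inserts it elsewhere. Most copies in mammalian genomes are short, internally deleted elements that encode no transposase and depended on that of a related element. In mouse the class is considered extinct as mobile DNA, most of it is shared with other placental mammals, and URR1 elements are among the few groups that are specific to rodents. This sets the class apart from the retroelements, which copy themselves through an RNA intermediate and include endogenous retroviruses (LTR class) and L1 elements (LINE class) that are still active in mouse. SETDB1 deposits H3K9me3 and is known in mESCs for silencing endogenous retroviruses, to which it is recruited by KRAB zinc finger proteins and TRIM28. G9a/GLP deposit H3K9me2.

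Every value below is a total over all copies of a subfamily in the genome. The copies behind a total, and reads of a copy that lies within a transcript of a gene, cannot be told apart from these tables. In bulk RNA, fewer cells with a transcript and less of it per cell cannot be told apart either.

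The class was dominated by 2 families. hAT-Charlie, 73 subfamilies related to the hAT transposases, held 68.3% of all DNA transposon counts. TcMar-Tigger, 44 subfamilies of the Tc1/mariner superfamily with pogo-like transposases, held 21.5%. Next came hAT-Tip100 with 31 subfamilies and 2.90% of the counts, the unsplit hAT field (8, 1.81%), TcMar-Mariner (3, 1.4%), hAT-Blackjack (8, 1.19%) and TcMar-Tc2 (8, 1.09%). The TcMar field (5 subfamilies), the unassigned field called DNA (11), MULE-MuDR (5), PiggyBac (2) and MuDR (5) each held under 1% of the counts, and MER132, the only TcMar-Pogo entry, had 1 count in a single library. The counts were also concentrated within families. The rodent-specific URR1B and URR1A together held 23.8% of the counts of the class and the 10 most abundant subfamilies 51.8%. Only 44 subfamilies reached a mean CPM (counts per 1e6 counts of the library) of 5. These shares are of counts and are not corrected for the length or number of copies.

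Of the 204 subfamilies, 159 passed the filter on low counts and were tested. Among the 45 that did not pass, which together held 0.355% of the counts, 7 had no count in any library. Since a subfamily could pass through the condition in which it was high, counts over the 159 are set beside the same counts over all 16245 features tested.

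The libraries held between 11702590 and 26807807 counts, of which between 14319 and 47028 belonged to DNA transposons, and between 173 and 190 of the 204 subfamilies had at least 1 count in a library. Replicate 1 exceeded replicate 2 in every condition over the tested DNA transposons, by a median of 0.69 to 0.93 on the log2 scale. The same held for LTR (0.54 to 0.82), LINE (0.84 to 1.20) and SINE subfamilies (0.67 to 0.85), whereas the median over genes was between -0.15 and -0.02. The sum of 3 fibroblast markers was between 3.13 and 5.81 CPM in replicate 1 and between 14.4 and 19.6 CPM in replicate 2 of the 4 conditions, and its part in the repeat values was not tested. Of these, Col1a1 and Col1a2 were higher in replicate 2 in every condition. Thy1 was higher in replicate 1 of WT (2.99 and 1.95 CPM) and of the combined treatment (1.93 and 1.26). It was higher in replicate 2 with UNC0642 (2.20 and 3.03) and in Setdb1 KO mESCs (1.49 and 2.62). The sum of 7 mESC markers was between 2180 and 4796 CPM with none at 0, and was also higher in replicate 2 in every condition. In replicates 1 and 2 it was 2180 and 3959 CPM in WT and 2860 and 4418 with UNC0642. It was 2950 and 3312 in Setdb1 KO mESCs and 2414 and 4796 with both. Single members departed from the sum. Sox2 was higher in replicate 1 of WT (696.8 and 658.7 CPM), with UNC0642 (673.4 and 650.5) and in Setdb1 KO mESCs (660.3 and 597.4). Tfcp2l1 was higher in replicate 1 of Setdb1 KO mESCs (281.9 and 130.3) and with both (276.4 and 135.8). Klf4 was so in Setdb1 KO mESCs (89.1 and 74.7). Pou5f1, Nanog, Zfp42 and Esrrb were higher in replicate 2 in every condition. Markers of trophectoderm (4 genes, 5.30 to 38.9 CPM), primitive endoderm (3 genes, 5.22 to 39.6 CPM) and primed or germ layer cells (3 genes, 8.10 to 30.8 CPM) were low in sum. Among them Fgf5, a primed-state gene, had 0.0855 and 0.518 CPM in WT mESCs, 1.50 and 2.25 with UNC0642, 12.0 and 5.60 in Setdb1 KO mESCs and 11.1 and 2.32 with both, and both KO groups lay above WT. Its log2 fold change was 4.88 in Setdb1 KO mESCs (edgeR adjusted p = 0.0873, or 0.0319 with the block) and 4.64 with both (0.0493, or 0.0221 with the block). Sox1 of the same list went the other way in Setdb1 KO mESCs within each replicate number. It had 2.35 and 9.26 CPM there, against 8.03 and 15.25 in WT. With both treatments Sox1 had 5.72 and 26.74 CPM, lower than WT in replicate 1 and higher in replicate 2. T, also of this list, had at most 0.671 CPM in a library, and neither gene was called. Eomes of trophectoderm was called lower with both treatments and the block (log2 fold change -1.49 without it, edgeR adjusted p = 0.325, or 0.0347 with the block). In Setdb1 KO mESCs Eomes was not called, at 36.6 and 13.8 CPM against 17.35 and 20.02 in WT (log2 fold change 0.59). Gata3 of the same list was not called with both treatments (log2 fold change -0.29), and Cdx2 and Elf5 did not pass the filter. The part of these single genes in the repeat values was not tested. Setdb1 itself had 166 and 140 CPM in WT mESCs and 122 and 104 with UNC0642, against 41.7 and 56.5 after 4-OHT alone and 49.5 and 35.3 after both treatments. Both KO groups thus lay below both WT libraries, with a log2 fold change of -1.59 ± 0.44 (SE) and -1.64 ± 0.44 (edgeR quasi-likelihood test, Benjamini-Hochberg adjusted p = 0.181 and 0.0746, or 0.0164 and 0.00593 with the replicate number as a block).

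Summed over the class, DNA transposons differed far less between conditions than LTR and LINE elements. The class had 1224 and 850 CPM in replicates 1 and 2 of WT mESCs, 1399 and 982 with UNC0642, 1754 and 1237 in Setdb1 KO mESCs, and 1545 and 1173 with both treatments. The replicates of a condition were as far apart as the conditions. Within a replicate number, however, every treated library lay above its WT library, 1.14 and 1.16 times with UNC0642, 1.43 and 1.46 times in Setdb1 KO mESCs and 1.26 and 1.38 times with both. LTR elements reached 4.98 and 6.32 times WT in Setdb1 KO mESCs and 8.35 and 7.31 times with both, and LINEs 5.38 and 3.55 times and 8.71 and 6.56 times. SINEs, at 1.30 and 1.28 times and 1.10 and 1.19 times, lay near DNA transposons. So did the ancient retroelement families MIR (1.25 and 1.28, then 1.05 and 1.09) and L2 (1.30 and 1.24, then 1.10 and 1.16), whose copies are inactive like those of the DNA class.

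**Figure D1:**
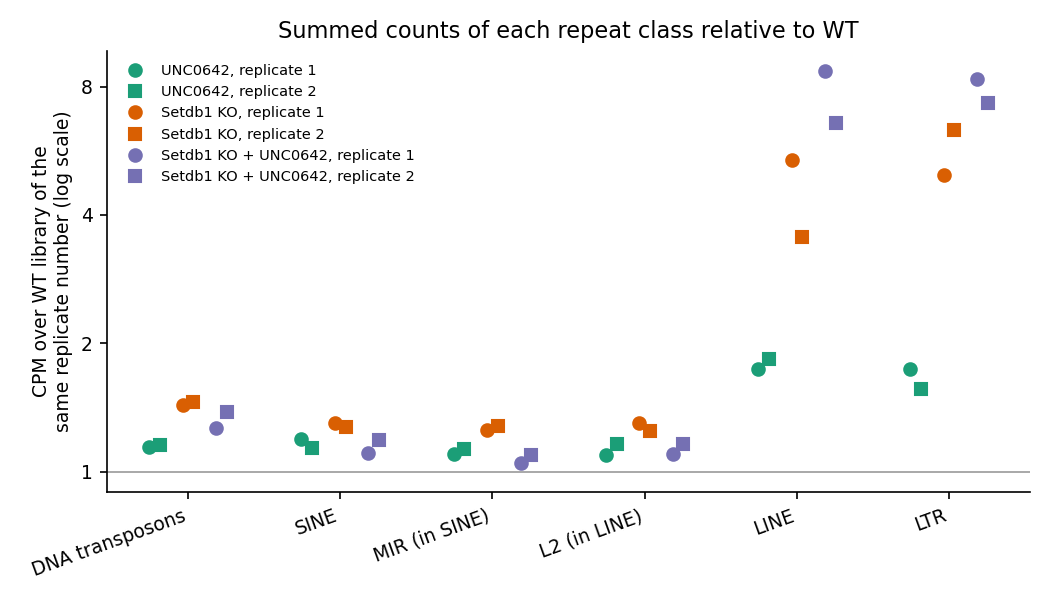
Summed CPM of each repeat class, and of the MIR and L2 families, divided by the WT library of the same replicate number (log scale). Circles are replicate 1 and squares replicate 2 of the 3 treated conditions. DNA transposons, SINEs, MIR and L2 lie between 1.05 and 1.46, and LTR elements and LINEs between 3.55 and 8.71 in both KO conditions.

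As the other classes grew, the share of DNA transposons among all repeat counts shrank. It was 3.31% and 3.07% in WT mESCs, 2.56% and 2.50% with UNC0642, 1.50% and 1.34% in Setdb1 KO mESCs and 0.905% and 1.03% with both. The treated groups did not overlap WT here, in the opposite direction to the share among all counts (0.122% and 0.0850% in WT, 0.175% and 0.124% in Setdb1 KO mESCs). Relative to the counts assigned to genes, which leaves the growth of the repeat counts out of the denominator, the ratios to WT were 1.16 and 1.17 with UNC0642, 1.56 and 1.56 in Setdb1 KO mESCs and 1.47 and 1.52 with both.

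Families differed in size and in direction. hAT-Charlie had 829 and 600 CPM in WT, 1199 and 883 in Setdb1 KO mESCs and 1029 and 782 with both treatments, or 1.45 and 1.47 times and 1.24 and 1.30 times WT. TcMar-Tigger had 273 and 176 CPM in WT, 389 and 240 in Setdb1 KO mESCs and 329 and 240 with both, or 1.43 and 1.36 times and 1.21 and 1.36 times WT. The class sum followed these 2 families. hAT-Tip100 stood at 1.96 and 1.65 times WT in Setdb1 KO mESCs and 1.95 and 2.20 times with both, above the class ratio in all 4 libraries, and its 53.7, 31.6, 53.5 and 42.1 CPM lay above both WT libraries (27.4 and 19.1). hAT-Blackjack was at 1.54 and 1.52 and then 1.41 and 2.02 times WT, with overlap between WT (13.3 and 8.20 CPM) and Setdb1 KO mESCs (20.5 and 12.5 CPM). The unsplit hAT field went in opposite directions in the 2 replicates, at 0.884 and 1.54 times WT in Setdb1 KO mESCs and 0.745 and 1.15 times with both. TcMar-Mariner (1.20 and 1.48, then 0.930 and 1.09) and TcMar-Tc2 (1.09 and 1.39, then 0.954 and 1.16) stayed within 1.5 times WT. UNC0642 alone gave ratios of 1.13 and 1.13 for hAT-Charlie, 1.19 and 1.17 for TcMar-Tigger, 1.30 and 1.53 for hAT-Tip100 and 1.37 and 1.41 for hAT-Blackjack. The largest were in families of few counts, 2.21 and 2.32 for MuDR (10 and 15 counts in WT), 1.55 and 3.53 for MULE-MuDR (31 and 32 counts) and 1.66 and 1.72 for TcMar. MULE-MuDR, at 2.65 and 1.27 CPM in WT and 4.09 and 4.50 with UNC0642, and MuDR, at 0.855 and 0.597 and then 1.89 and 1.38, did not overlap WT. Nor did hAT-Tip100, at 35.6 and 29.2 CPM with UNC0642. This was not particular to UNC0642. MULE-MuDR had 3.06 and 3.47 CPM in Setdb1 KO mESCs and 4.03 and 3.39 with both treatments, again above both WT libraries. MuDR also lay above them, at 2.05 and 1.04 and then 2.19 and 1.26.

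The TcMar field, a small group in which MER121 held 95.5% of the counts over all libraries but only 5 of 14 and 6 of 12 in WT, had the largest ratios of any DNA transposon family in both KO conditions. It had 1.20 and 0.478 CPM in WT mESCs, 1.98 and 0.822 with UNC0642, 7.05 and 2.92 in Setdb1 KO mESCs and 43.8 and 36.5 with both treatments. These were 5.89 and 6.12 times WT in Setdb1 KO mESCs and 36.6 and 76.3 times with both. Without MER121, Charlie1, Charlie2a and Charlie2b, subfamilies chosen for their values, the ratios of the class were 1.4 and 1.38 in Setdb1 KO mESCs and 1.20 and 1.29 with both. Without URR1A and URR1B they were 1.42 and 1.47, and 1.26 and 1.42.

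**Figure D2:**
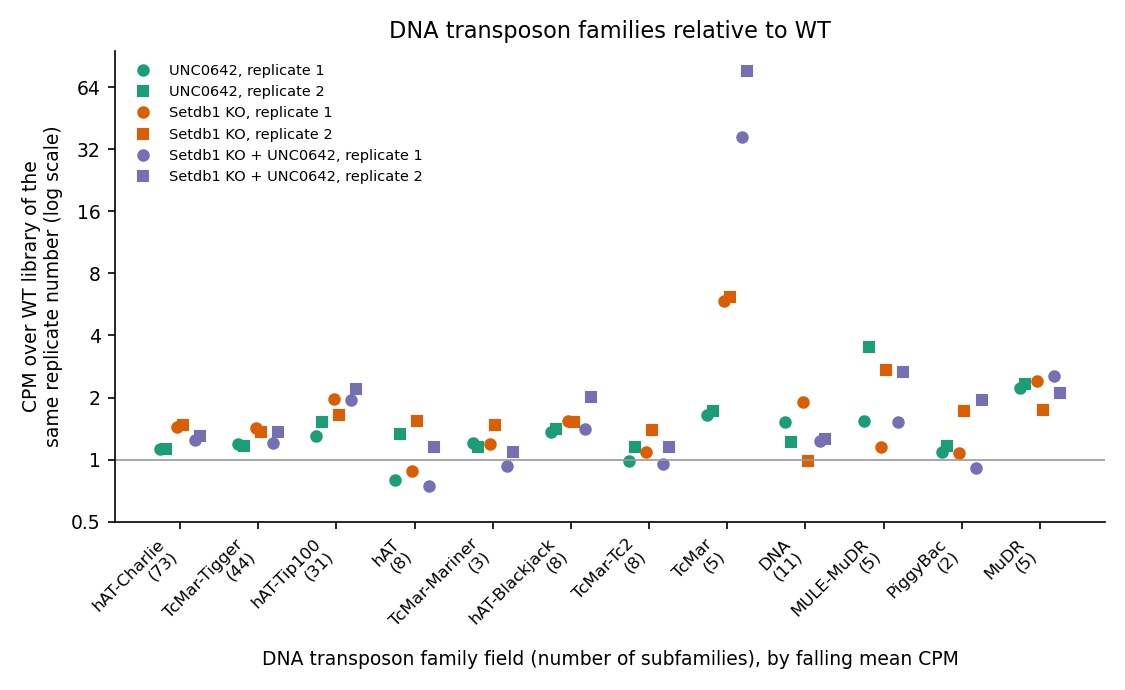
CPM of each DNA transposon family divided by the WT library of the same replicate number (log scale), by falling mean CPM, with the number of subfamilies in parentheses. Circles are replicate 1 and squares replicate 2. hAT-Charlie and TcMar-Tigger lie between 1.13 and 1.47, hAT-Tip100 between 1.30 and 2.20, and TcMar reaches 36.6 and 76.3 in UNC0642-treated Setdb1 KO mESCs.

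The most abundant subfamilies carried these modest ratios, and none of them was called without the block. URR1B, a short rodent-specific hAT element without a transposase gene, had 159 and 99.0 normalised CPM (scaled by TMM factors) in WT mESCs, 210 and 108 with UNC0642, 295 and 137 in Setdb1 KO mESCs and 264 and 140 with both. Its groups overlapped, replicate 1 being the higher in each, and its log2 fold change was 0.75 ± 0.56 (SE) in Setdb1 KO mESCs (edgeR adjusted p = 0.930). URR1A had 139 and 86.6 in WT, 164 and 87.2 with UNC0642, 192 and 125 in Setdb1 KO mESCs and 193 and 106 with both, again with overlap. MER2, a non-autonomous Tigger element, had 86.0 and 43.9 in WT, 97.4 and 48.8 with UNC0642, 119 and 67.8 in Setdb1 KO mESCs and 113 and 76.1 with both. Its KO libraries also overlapped WT. MER20, an ancient hAT-Charlie element, was the exception among these: its 57.8 and 55.0 in Setdb1 KO mESCs and 46.9 and 44.5 with both lay above both WT libraries (43.6 and 30.8), although the log2 fold changes were only 0.60 and 0.30 and did not pass. Charlie1a had 35.5 and 15.4 in WT, 36.9 and 16.5 with UNC0642, 54.2 and 28.2 in Setdb1 KO mESCs and 50.1 and 23.6 with both. RCHARR1, MER5A, Tigger7, MER5B and MER58A, the others of the 10 most abundant, had log2 fold changes between 0.35 and 0.68 in Setdb1 KO mESCs and between 0.27 and 0.77 with both.

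**Figure D3:**
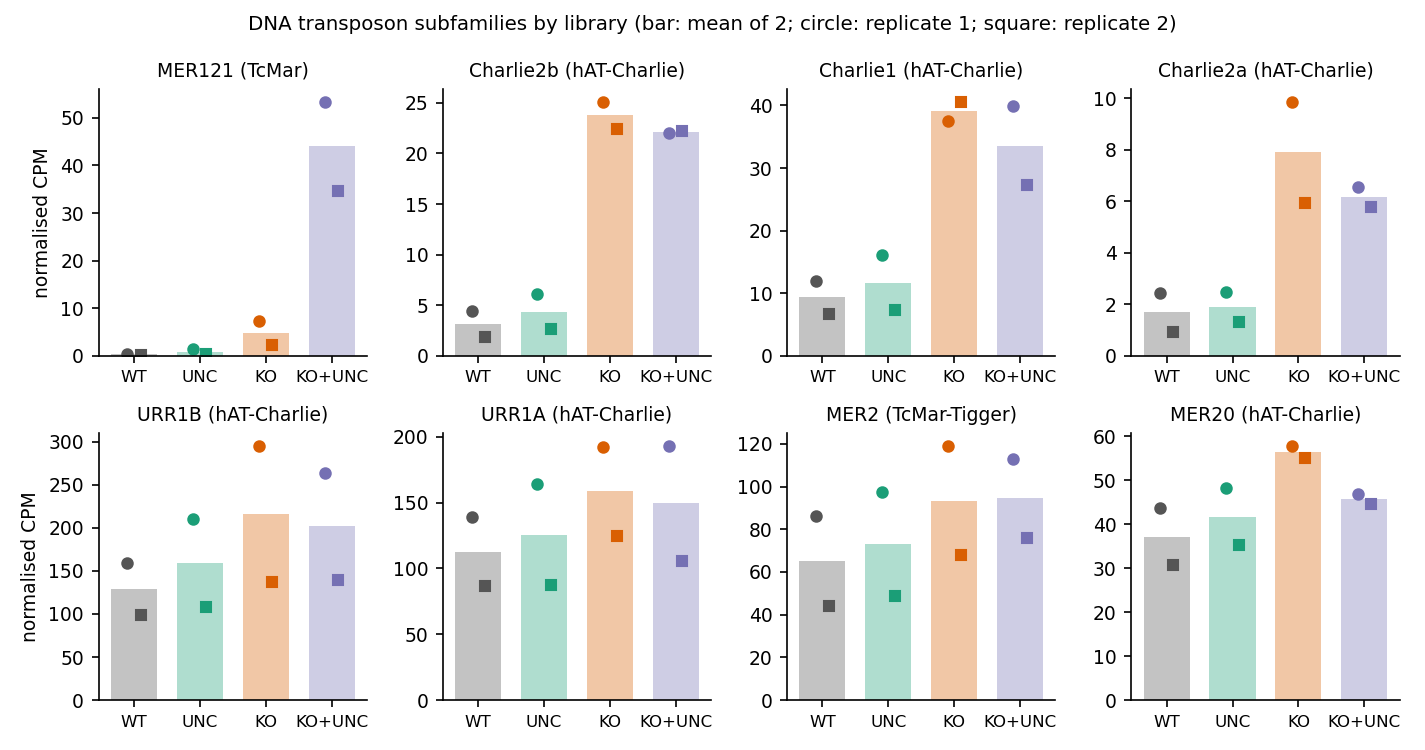
Normalised CPM (linear axis from 0) of 8 DNA transposon subfamilies in WT, UNC0642-treated (UNC), Setdb1 KO (KO) and UNC0642-treated Setdb1 KO mESCs (KO+UNC). Bars are means of 2 libraries, circles replicate 1 and squares replicate 2. MER121, Charlie2b, Charlie1 and Charlie2a (top) have no overlap between WT and either KO condition, whereas URR1B, URR1A and MER2 (bottom) overlap in both.

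With UNC0642 alone no DNA transposon passed the test. The median log2 fold change over the 159 tested was 0.28, against 0.39 for LTR, 0.39 for LINE and 0.16 for SINE subfamilies and -0.04 for genes, and 78.0% had a positive value (48% of all features tested). In 78 the value was higher in both replicate numbers (28.4%). Within replicates 1 and 2 the median difference was 0.29 and 0.15. The median log2 fold change turned to -0.29 without UNC0642 replicate 1 and to -0.06 without WT replicate 2, and was 0.62 and 0.71 without the other library of each condition. None was called in edgeR (0% of all features called), with or without the block (0.166%) or in DESeq2 (0.739%), and 1 reached an unadjusted p under 0.05, on the higher side (2.96% of all features higher and 0.394% lower). In 21 both treated libraries lay above both WT libraries and in 2 below (13.7% and 10.7% of all features). The smallest p belonged to Charlie13b, a hAT-Charlie subfamily with 1 and 8 counts in WT and 27 and 17 with UNC0642 (log2 fold change 2.15 ± 0.94 (SE), edgeR unadjusted p = 0.0478 and adjusted p = 1). MER97b of hAT-Tip100 followed with 0 and 3 counts in WT and 18 and 7 with UNC0642, and Ricksha of MULE-MuDR with 4 and 12 and then 12 and 54 counts. Tigger17b (7 and 4, then 29 and 24 counts) and MER96 (0 and 3, then 5 and 9 counts) also had no overlap. All of these rest on low counts, and none passed.

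In Setdb1 KO mESCs the class leaned upward as a whole. The median log2 fold change over the tested DNA transposons was 0.62, with the middle 50% between 0.32 and 0.97. LTR subfamilies had a median of 1.18, LINEs 0.80 and SINEs 0.42, and genes -0.06. L2 (0.43) and MIR (0.45), with 4 tested subfamilies each, lay about as far below the DNA median as LINEs lay above it. A positive value was found in 88.7% of the tested DNA transposons (48.4% of all features), and 116 of 159 were higher in both replicate numbers (28.6%). Both KO libraries lay above both WT libraries in 48 and below in 1, Charlie17b (17.5% and 13.1% of all features). By replicate number the median difference from WT was 0.61 and 0.50, whereas it was 1.25 and 0.88 for LTR and 0.89 and 0.70 for LINE subfamilies. Without Setdb1 KO replicate 1 the DNA median over both replicates fell to 0.06 and without WT replicate 2 to 0.31. It was 1.07 without WT replicate 1 and 1.01 without Setdb1 KO replicate 2. These fits, like those of the other comparisons, had no block, so 1 replicate number was set against both. Over DNA transposons replicate 1 exceeded replicate 2 by a median of 0.72 in WT and 0.93 in Setdb1 KO mESCs on the log2 scale. The part of this shift in these medians was not tested.

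No single DNA transposon was called in this comparison by edgeR (1.11% of all features called higher), although 8 reached an unadjusted p under 0.05 and all 8 were higher (7.07% of all features higher and 1.63% lower). With the replicate number as a block 5 were called higher (3.8% of all features) and in DESeq2 4 (3.32%). The share with the block, 3.14%, was below that of all features. Across DNA transposons alone the deviations of same-numbered libraries correlated at r = 0.0788 between WT and Setdb1 KO and 0.147 between WT and the combined treatment. This r leaves out the shift that the subfamilies share, which the block also takes up. The median log2 difference of replicate 1 from replicate 2 was 0.72 in WT, 0.93 in Setdb1 KO mESCs and 0.69 with both. By comparison 45 of 571 LTR and 1 of 144 LINE subfamilies were called by edgeR, and 134 and 45 with the block. The 5 were MER121, Charlie2b, Charlie1, Charlie2a and MER20B, and the first 4 were those of DESeq2.

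Charlie1, Charlie2a and Charlie2b are related hAT-Charlie subfamilies, and all 3 were called with the block. They are set together here after their values were seen. Charlie1a and Charlie1b, the closest to Charlie1 by name, were not called and overlapped WT in both KO conditions. Charlie1b had 16.3 and 11.3 normalised CPM in WT, 22.9 and 13.1 in Setdb1 KO mESCs and 16.7 and 10.8 with both. Charlie2b had 4.44 and 1.88 normalised CPM in WT mESCs, 6.11 and 2.66 with UNC0642, 25.1 and 22.4 in Setdb1 KO mESCs and 22.0 and 22.2 with both. Charlie1, the most abundant of the 3, had 12.0 and 6.75 in WT, 16.1 and 7.30 with UNC0642, 37.5 and 40.6 in Setdb1 KO mESCs and 39.9 and 27.3 with both. Charlie2a had 2.44 and 0.938 in WT, 2.49 and 1.30 with UNC0642, 9.86 and 5.94 in Setdb1 KO mESCs and 6.54 and 5.77 with both. In all 3 the KO libraries, with or without UNC0642, lay above every library that was not KO, and the UNC0642 libraries overlapped WT. The log2 fold change in Setdb1 KO mESCs was 2.93 ± 0.62 (SE) for Charlie2b (edgeR adjusted p = 0.0723, or 0.00542 with the block). It was 2.06 ± 0.54 for Charlie1 (0.148, or 0.0105 with the block) and 2.26 ± 0.68 for Charlie2a (0.236, or 0.0213 with the block). How reads shared between related subfamilies were divided in the counting limits how far the 3 can be told apart. MER20B, a relative of MER20, had 23.4 and 10.5 in WT, 17.8 and 14.9 with UNC0642, 56.4 and 27.8 in Setdb1 KO mESCs and 52.5 and 27.1 with both. Its log2 fold change with the block was 1.33 ± 0.29 (edgeR adjusted p = 0.0412), and it was not called without the block (0.549).

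MER121, an ancient element whose copies are known to be strongly conserved among mammals, behaved differently from the Charlie subfamilies. It had 5 and 6 counts in WT mESCs, 30 and 12 with UNC0642, 174 and 42 in Setdb1 KO mESCs and 514 and 941 with both treatments. In normalised CPM these were 0.435 and 0.217, 1.41 and 0.432, 7.37 and 2.31, and 53.4 and 34.6. Each KO condition lay above both WT libraries, the combined treatment also lay above both Setdb1 KO libraries, and UNC0642 alone overlapped WT. Over the WT library of the same replicate number the values were 16.9 and 10.7 times in Setdb1 KO mESCs and 123 and 160 times with both. The log2 fold change in Setdb1 KO mESCs was 3.97 ± 0.87 (SE, edgeR adjusted p = 0.0801, or 0.00322 with the block). With 1 library left out at a time, this log2 fold change was lowest without Setdb1 KO replicate 1 (2.90) and highest without Setdb1 KO replicate 2 (4.54). It was 4.45 without WT replicate 1 and 3.46 without WT replicate 2.

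In UNC0642-treated Setdb1 KO mESCs the class stood as in Setdb1 KO mESCs or slightly below. The median log2 fold change from WT was 0.51, against 1.38 for LTR, 0.92 for LINE and 0.23 for SINE subfamilies and -0.06 for genes. By replicate number the DNA median was 0.45 and 0.53. A positive value was found in 80.5% of the tested DNA transposons (49.4% of all features), and 101 of 159 were higher in both replicate numbers (32.3%). Both treated libraries lay above both WT libraries in 50 and below in 8 (22.3% and 21.1% of all features). Without UNC0642-treated Setdb1 KO replicate 1 the median fell to 0.04 and without WT replicate 2 to 0.14, and it was 0.95 without WT replicate 1 and 0.86 without UNC0642-treated Setdb1 KO replicate 2.

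By edgeR 2 DNA transposons rose in this comparison, MER121 and Charlie2b (3.6% of all features called higher), and none fell. MER121 rose by 7.14 ± 0.96 (SE) on the log2 scale (edgeR adjusted p = 0.00661) and Charlie2b by 2.82 ± 0.62 (0.0383). MER121 lost its call without WT replicate 1 (0.0727) or WT replicate 2 (0.0785). Charlie2b lost it without WT replicate 1 (edgeR adjusted p = 0.0998) or 2 (0.227), Setdb1 KO replicate 1 (0.0528), or either UNC0642-treated Setdb1 KO replicate (0.0990 and 0.101). Charlie1 (1.84 ± 0.53, edgeR adjusted p = 0.0971) and Charlie2a (1.89 ± 0.68, 0.175) did not pass without the block. At an unadjusted p under 0.05 there were 16 higher and 1 lower (10.9% and 7.11% of all features). DESeq2 called 4 higher (6.62% of all features), MER121, Charlie2b, Charlie1 and MER45B. Among retroelements 98 of 571 LTR and 12 of 144 LINE subfamilies were called higher by edgeR, and none of 35 SINE subfamilies, of which 0 reached an unadjusted p under 0.05 and 0 were called in DESeq2.

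With the replicate number as a block 17 DNA transposons were called higher with both treatments, or 10.7% of those tested, near the 9.98% of all features called higher. The 17 included the 5 called in Setdb1 KO mESCs, and 16 of the 17 had both treated libraries above both WT libraries. RCHARR1 was the exception, at 49.5 and 24.3 normalised CPM in WT and 82.9 and 42.8 with both. By family they were 8 of 63 hAT-Charlie, 5 of 24 hAT-Tip100, 2 of 39 TcMar-Tigger, 1 of 7 hAT-Blackjack and 1 of 2 TcMar subfamilies tested. LTR and LINE subfamilies were called in 51.8% and 44.4% of those tested in the same fit.

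The hAT-Tip100 calls with the block fell on subfamilies with at most 2.79 normalised CPM in a WT library. Charlie2a, at 2.44 and 0.938 in WT, was at a similar level. MER45B had 1.57 and 0.577 normalised CPM in WT mESCs, 2.73 and 1.62 with UNC0642, 2.54 and 1.71 in Setdb1 KO mESCs and 4.26 and 5.92 with both. FordPrefect, the most abundant of the family, had 2.79 and 1.73 in WT, 6.58 and 3.71 with UNC0642, 9.44 and 3.14 in Setdb1 KO mESCs and 10.7 and 5.04 with both. Both lay above WT in every treated condition without overlap. Their log2 fold changes from WT with both treatments and the block were 2.45 ± 0.56 (SE, edgeR adjusted p = 0.0220) and 1.72 ± 0.39 (0.0215). MER115 was at 1.48 and 0.397 normalised CPM in WT and 3.74 and 3.13 with both, and Arthur1 at 1.83 and 1.15 and then 6.44 and 3.46. Zaphod2 had 2 and 2 counts in WT, 8 and 4 with UNC0642, 26 and 5 in Setdb1 KO mESCs and 31 and 9 with both. With both WT libraries at or under 3 counts no fold is given for it, nor for MER97b (48 and 5 counts in Setdb1 KO mESCs, 17 and 17 with both) or MER96 (9 and 0, then 9 and 14 counts), which were not called. Eulor1 of the field called DNA, also uncalled, had 0 and 6 counts in WT, 5 and 2 in Setdb1 KO mESCs and 9 and 35 with both.

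The remaining calls with the block fell in hAT-Charlie, TcMar-Tigger and hAT-Blackjack. MER3 had 19.2 and 11.3 normalised CPM in WT mESCs and 42.1 and 24.9 with both treatments, and MER58B 20.3 and 12.6 and then 43.2 and 25. Both are short, non-autonomous hAT-Charlie elements, and their log2 fold changes with the block were 1.13 ± 0.25 (SE, edgeR adjusted p = 0.0183) and 1.04 ± 0.25 (0.0260). Charlie24 was at 1.48 and 1.05 in WT and 4.05 and 5.22 with both. Tigger5 and MER44D represented TcMar-Tigger, at 7.40 and 6.32 and then 17.9 and 12.3, and at 2.61 and 1.55 and then 6.75 and 4.85. MER63D, the leading hAT-Blackjack subfamily, was at 2.96 and 1.59 in WT and 7.99 and 5.00 with both.

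**Figure D4:**
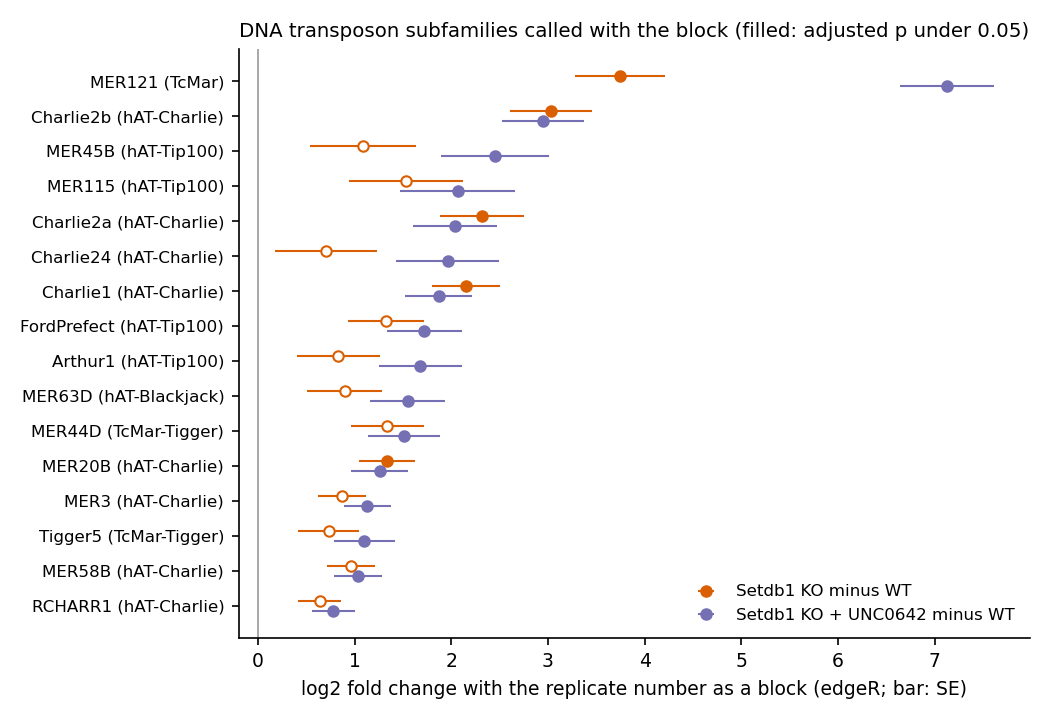
Log2 fold change from WT ± SE, with the replicate number as a block (edgeR), of 16 of the 17 DNA transposon subfamilies called in UNC0642-treated Setdb1 KO mESCs. Zaphod2, with both WT libraries under 3 counts, is left out. Filled symbols have an adjusted p under 0.05. In Setdb1 KO mESCs 5 are filled, and MER121 has the largest value in both comparisons (3.75 and 7.12).

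A few subfamilies were lower with both treatments. MER102c, chosen here after its values were seen as the 1 subfamily that was lower at an unadjusted p under 0.05, had 106 and 801 counts in WT mESCs, 253 and 510 with UNC0642, 220 and 195 in Setdb1 KO mESCs and 69 and 180 with both. In normalised CPM WT replicate 2 (28.9) was far above WT replicate 1 (9.23), and both combined libraries (7.16 and 6.62) lay below WT, with a log2 fold change of -1.47 (edgeR adjusted p = 0.235). UCON29 of PiggyBac had 10 and 9 counts in WT, 16 and 7 in Setdb1 KO mESCs and 1 and 6 with both (log2 fold change -1.67, adjusted p = 0.424 in edgeR). Neither passed the test, and no DNA transposon was called lower in any comparison, by edgeR with or without the block or by DESeq2. Of all features, 0.505% were called lower with both treatments by edgeR, 7.19% with the block and 2.72% in DESeq2, and in Setdb1 KO mESCs 0.00616%, 0.492% and 0.179%. The shares in the same order were 0%, 0.00616% and 0.0739% for the combined treatment against Setdb1 KO and 0.0123%, 0.412% and 0.326% for Setdb1 KO against UNC0642.

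**Figure D5:**
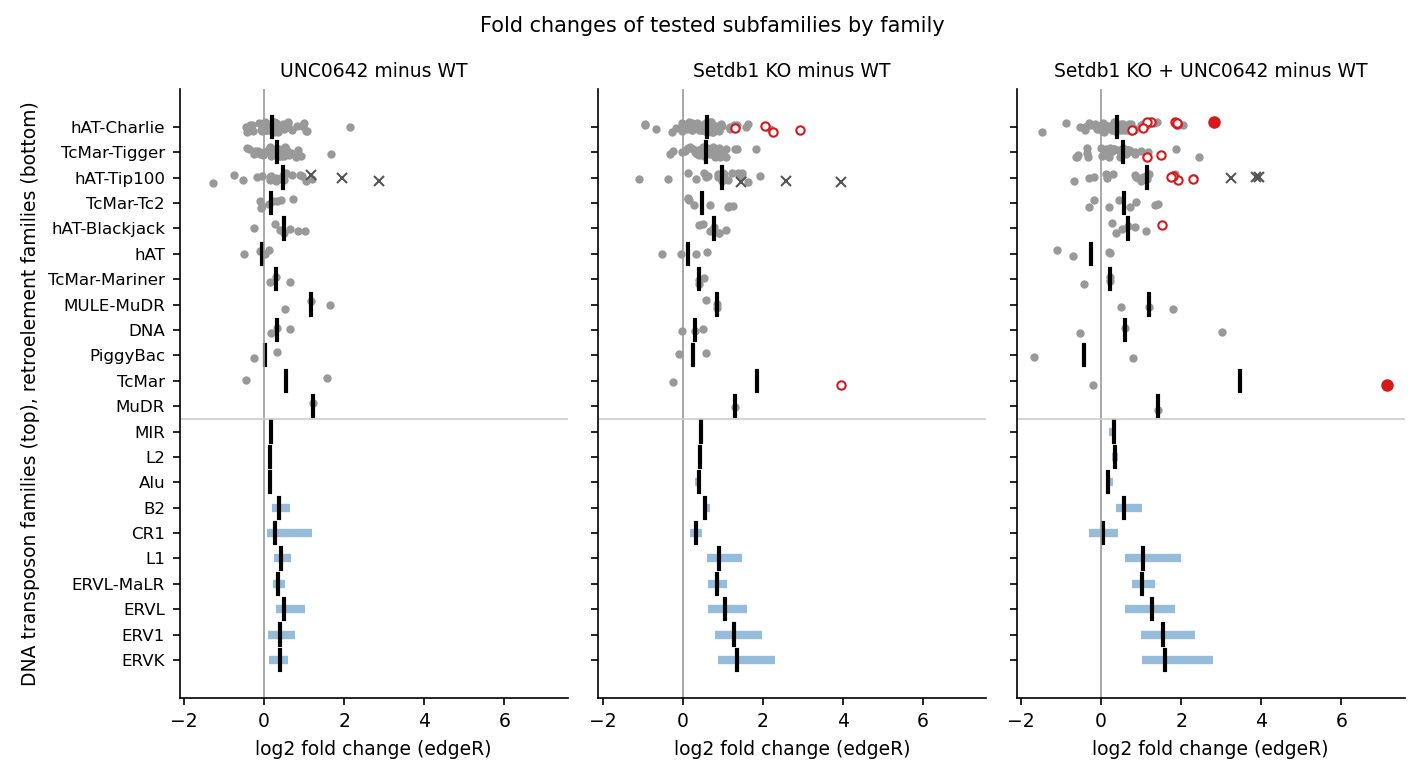
Log2 fold change from WT (edgeR) of each tested DNA transposon subfamily by family (top; points, with a line at the median) and the median and middle 50% of retroelement families (bottom; blue bars) in the 3 treated conditions. Filled red points were called without the block and open red points with the block alone. Crosses are the 3 subfamilies with both WT libraries at or under 3 counts, whose fitted values depend on the prior count, among them Zaphod2, called with the block in the combined condition. In Setdb1 KO mESCs the medians are 0.60 for hAT-Charlie, 0.58 for TcMar-Tigger and 0.99 for hAT-Tip100, against 1.35 for ERVK.

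Among the 5 families with 7 or more tested subfamilies hAT-Tip100 had the highest median. In Setdb1 KO mESCs the median log2 fold change was 0.99 over 24 tested hAT-Tip100 subfamilies, 0.78 over 7 of hAT-Blackjack, 0.60 over 63 of hAT-Charlie, 0.58 over 39 of TcMar-Tigger, 0.48 over 8 of TcMar-Tc2, 0.42 over 3 of TcMar-Mariner and 0.14 over 4 of the unsplit hAT field. With both treatments it was 1.15, 0.68, 0.41, 0.54, 0.58, 0.21 and -0.25 in the same order. The smallest families lay on both sides of it, at 0.87 and then 1.19 over 3 of MULE-MuDR, 1.30 and 1.41 for the 1 of MuDR, 1.86 and 3.47 over 2 of TcMar, 0.30 and 0.60 over 3 of the field called DNA and 0.25 and -0.44 over 2 of PiggyBac. The differences between families were not tested, and hAT-Tip100 held fewer counts per subfamily than hAT-Charlie or TcMar-Tigger.

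The combined treatment was also compared with Setdb1 KO directly. By the sample labels these conditions also differ in the days of 4-OHT, so UNC0642 and the time of 4-OHT cannot be told apart in this comparison. DNA transposons had a median log2 difference of -0.09 here, against 0.19 for LTR and 0.14 for LINE subfamilies and -0.17 for SINEs. By replicate number it was -0.15 and 0.02. Both combined libraries lay above both Setdb1 KO libraries in 11 DNA transposons and below in 22 (12.2% and 13.3% of all features). None was called by edgeR (0% of all features), 2 were higher and none lower at an unadjusted p under 0.05 (2.79% and 1.79%), and 1 was called higher both with the block (0.123%) and in DESeq2 (0.56%). This was MER121, with a log2 difference of 3.18 ± 0.77 (SE, edgeR adjusted p = 0.567) without the block and 3.38 with it (0.0205). The other at an unadjusted p under 0.05 was Eulor1. The median turned to 0.53 without Setdb1 KO replicate 1 and to 0.28 without UNC0642-treated Setdb1 KO replicate 2, and was -0.47 and -0.57 without the other library of each condition.

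Between Setdb1 KO and UNC0642-treated mESCs the median log2 difference of DNA transposons was 0.29 (LTR 0.69). It turned to -0.28 without Setdb1 KO replicate 1 and to -0.08 without UNC0642 replicate 2, and was 0.67 and 0.88 without the other library of each condition. None was called by edgeR (0.529% of all features called higher), with 6 at an unadjusted p under 0.05, all higher in Setdb1 KO mESCs (4.33% of all features higher and 1.73% lower). With the block 4 were called (2.22% of all features), Charlie2b, MER121, Charlie1 and Charlie2a, and in DESeq2 1 (1.87%). MER91A of hAT-Tip100 also had no overlap, at 0.658 and 0.576 normalised CPM with UNC0642 and 2.62 and 1.54 in Setdb1 KO mESCs. In 21 DNA transposons both Setdb1 KO libraries lay above both UNC0642 libraries, and in 4 below (12.6% and 12% of all features). The interaction of the treatments, that is the departure of their joint effect from the sum of both on the log2 scale, carries the same difference in 4-OHT time. It had a median of -0.33, and no DNA transposon was called by edgeR, with or without the block, or by DESeq2 (0% of all features by edgeR). Its smallest p was 0.107, for Charlie13b, followed by MER97b and Charlie10 of hAT-Charlie. The comparisons with WT share the WT libraries, and those with Setdb1 KO share the Setdb1 KO libraries.

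For scale, the retroelements given here are the subfamily with the smallest p in each of L1, ERVK and MIR with both treatments, so they were chosen on that comparison and the first 2 are extremes of their families. L1Md_Gf, a young mouse L1, had 16.1 and 18.0 CPM in WT mESCs, 86.7 and 75.2 with UNC0642, 425 and 160 in Setdb1 KO mESCs and 873 and 447 with both. MMERVK10D3_I-int, the internal part of an ERVK, had 7.18 and 7.05, 9.59 and 15.8, 129 and 149, and 338 and 266 CPM. Both rose with the combined treatment, by 5.53 and 5.62 on the log2 scale (edgeR adjusted p = 0.00700 and 0.00176). MIR, an ancient SINE, had 228 and 160, 250 and 185, 285 and 215, and 255 and 193 CPM, with a log2 fold change of 0.41 (edgeR adjusted p = 0.759). The log2 fold change of L1Md_Gf was the largest of the 127 tested L1 subfamilies, whose median was 1.05, and the median of the 273 tested ERVK subfamilies was 1.60.

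Several host genes descend from transposases of this class and kept a DNA-binding domain. Of 29 such genes listed, 24 were tested. None was called by edgeR or by DESeq2 in any of the 6 comparisons. At an unadjusted p under 0.05 there were 3 of 24 with both treatments, where 10.9% of all features were higher and 7.11% lower, and 0 in the other comparisons. With the block 1 was called (9.98% of all features higher), Thap2, a gene with the zinc finger of P element transposases, in UNC0642-treated Setdb1 KO mESCs. Thap2 had 5.73 and 7.25 CPM in WT mESCs, 8.27 and 9.47 with UNC0642, 8.06 and 9.99 in Setdb1 KO mESCs and 10.3 and 15.3 with both (log2 fold change 1.15 ± 0.46 (SE), edgeR adjusted p = 0.226, or 0.0375 with the block). The median log2 fold change of the 24 was 0.04 with UNC0642, -0.03 in Setdb1 KO mESCs and -0.08 with both, close to that of all genes. Cenpb, whose product binds centromeric satellite DNA and descends from a pogo-like transposase, had 49.8 and 79.0 CPM in WT and 43.6 and 62.5 with both. Pogz, of the same descent, had 105 and 112 and then 85.7 and 71.7, Tigd2, a Tigger-derived gene, 18.2 and 8.76 and then 21.9 and 21.5, and Pgbd5, a piggyBac-derived gene, 0.940 and 3.90 and then 1.85 and 2.59.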

How the data were processed

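Per the labels and the methods, the authors trimmed the reads of 8 poly(A) libraries with Trim Galore 0.3.7, mapped them to GRCm38 (mm10) with TopHat2 and counted them with TEtranscripts at default parameters. The strand setting and the repeat annotation are not given in the sources used here. Each library has 1 deposited table, which holds raw counts for genes and for repeat subfamilies. Libraries were grouped by their labels.

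Subfamilies of class DNA were selected, and 21 entries of class "DNA?" were left out. filterByExpr with a minimum count of 10 and a minimum total of 15 left 15313 genes and 932 subfamilies. TMM factors were computed over both, and an edgeR 4.0.16 (R 4.3.3) quasi-likelihood model with 1 coefficient per condition was fitted to the 8 libraries. A call is a Benjamini-Hochberg adjusted p under 0.05 over all 16245 features. Fold changes used a prior count of 0.125, and the SE was the absolute log2 fold change over the square root of F. Values per library are CPM of all counts or, where stated, TMM-normalised CPM, which also decided overlap. With 2 libraries a group, p-values measure the spread between these cultures, and a count of 3 was taken as the floor.

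Replicate numbers 1 and 2 recur in all conditions in the labels. Deviations of same-numbered libraries correlated in each of 6 pairs of conditions (r = 0.31 to 0.673 across all features, and 0.0788 to 0.36 across DNA transposons alone), so the numbers were treated as pairing and the fit with a block is given where it changes a call. Alternatives were DESeq2 1.42.0, the block, RLE, total counts and gene-only normalization, no filter, a prior count of 2, a fold above 2, only the libraries compared and leaving out each library. CPM per gene counts were added after the data were seen. Only the edgeR fit without the block was run on simulated counts, which carried no replicate shift. The fit with the block and DESeq2 were not run on them. Named subfamilies are the 10 with the highest mean CPM, the URR1 elements, and per comparison those called (up to 10, or the 3 with the smallest p where fewer than 3 were called) and up to 5 with the largest change without overlap. Subfamilies called with the block were added after their values were seen. Members and lists were chosen with earlier results of these data known.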

Additional observations from a re-analysis of the deposited data

How the results depend on the processing

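With a replicate block, the number of DNA transposons called higher went from 2 to 17 with both treatments, from 0 to 5 in Setdb1 KO mESCs, from 0 to 4 for Setdb1 KO against UNC0642 and from 0 to 1 for the combined treatment against Setdb1 KO. The block added no call for UNC0642 alone or for the interaction. DESeq2 gave 4, 4, 1 and 1 in the same order. Total counts normalization left 1 with both treatments and moved the median log2 fold change of genes to -0.12 in Setdb1 KO mESCs and -0.23 with both, and those of DNA transposons to 0.53 and 0.34. Without the expression filter 2 were called in Setdb1 KO mESCs, and 2 in a fit of only the libraries compared. Leaving out 1 library gave 0 to 2 calls with both treatments and 0 to 1 in Setdb1 KO mESCs. The median log2 fold change then ranged from -0.29 to 0.71 with UNC0642, 0.06 to 1.07 in Setdb1 KO mESCs, 0.04 to 0.95 with both, -0.57 to 0.53 for the combined treatment against Setdb1 KO, -0.28 to 0.88 for Setdb1 KO against UNC0642 and -0.84 to 0.19 for the interaction. A group left with 1 library was assumed to vary like the others.

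Reversals of named subfamilies came from leaving out 1 library and concerned abundant, uncalled ones. With UNC0642 their log2 fold changes then ranged from -0.25 to 0.68 for URR1B, -0.37 to 0.54 for URR1A, -0.41 to 0.74 for MER2, -0.38 to 0.88 for RCHARR1, -0.0715 to 0.44 for MER20, -0.23 to 0.45 for MER5A, -0.57 to 0.61 for Tigger7, -0.35 to 0.34 for MER5B, -0.61 to 0.80 for Charlie1a and -0.16 to 0.77 for MER58A. In Setdb1 KO mESCs the ranges were -0.0658 to 1.28 for RCHARR1, -0.26 to 1.14 for Tigger7 and -0.16 to 0.76 for MER5B. With both treatments they were -0.0894 to 0.78 for URR1A, -0.11 to 0.61 for MER5A, -0.11 to 1.03 for Tigger7, -0.22 to 0.86 for MER5B and -0.11 to 1.24 for Charlie1a. The lowest value came without replicate 1 of the treated condition in each of these. These fits had no block, so replicate 2 alone was then set against both WT replicates. Replicate 1 exceeded replicate 2 over DNA transposons by a median of 0.69 to 0.93 on the log2 scale. By replicate number the class medians were 0.29 and 0.15 with UNC0642 and 0.61 and 0.50 in Setdb1 KO mESCs. With both treatments they were 0.45 and 0.53. The part of the replicate shift in these reversals was not tested. With both treatments MER121 was called in 14 of 16 alternatives (log2 fold change 6.65 to 7.62) and Charlie2b in 10 of 16 (2.33 to 3.54). In Setdb1 KO mESCs they were called in 7 (2.90 to 4.54) and 4 (2.41 to 3.66). The interaction could not be fitted on only the libraries compared. At this depth, a subfamily with 3 counts stood at 0.112 to 0.256 CPM, so differences among subfamilies at that level were not detectable.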

Other observations

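The files hold 21 entries whose class field is "DNA?", which mark elements of uncertain assignment, and 4 of them were tested. None was called in any of the comparisons with WT by edgeR, with or without the block, or by DESeq2. With both treatments 1 of the 4 reached an unadjusted p under 0.05, and their log2 fold changes ranged from -1.86 to 4.24. The name Ricksha occurs in the files under both MULE-MuDR and MuDR. Ricksha of MuDR had 0.871 and 0.469 normalised CPM in WT mESCs, 1.97 and 1.08 with UNC0642, 2.29 and 0.936 in Setdb1 KO mESCs and 2.49 and 1.07 with both.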
